A study of Phanerodontia chrysosporium with 18 samples.

Results

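The proteasome is the protease that degrades proteins tagged with ubiquitin in the cytosol and nucleus of eukaryotic cells. Ubiquitin is activated by an E1 enzyme, handed to an E2 conjugating enzyme and attached to a substrate with the help of an E3 ligase, and deubiquitinating hydrolases remove it again. The 20S core is a barrel of alpha and beta subunits with the proteolytic sites on beta subunits, and the 19S particle binds, unfolds and feeds the substrate into it. Transcripts of this system were followed in the white-rot fungus Phanerochaete chrysosporium on spruce wood. Gene models were taken as members where the curated function or the InterPro description in the deposited table holds the word proteasome, ubiquitin or cullin, and F-box and ribosomal protein models were to be left out, which removed 0. This gave 107 of 13602 gene models. They were 14 models of the 20S core, 16 with a domain of the 19S particle, 3 other proteasome proteins, 1 E1, 21 E2, 7 cullin or E3 ligase models, 25 models of ubiquitin or ubiquitin-like and ubiquitin-binding proteins, and 20 hydrolases. The members are named by protein number, since few have a gene name in the table.

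All samples were of strain RP-78 on thin sections of white spruce (Picea glauca) sapwood, set in agar with nitrogen and mineral salts and no carbon nutrient, and differed in the time after inoculation, 40 h or 96 h. Each time had 3 poly-A RNA libraries, each from a pool of 20 sections and run in 3 lanes, which were averaged and counted once. Levels are in RPKM (reads scaled by model length and by mapped reads), a unit per length that lets models be compared. The sources used here do not say whether the pools were separate cultures, so every p-value rests on the spread among 6 libraries that may differ only technically. They give no read totals either, and steps between low values put the relative depth at 0.717 to 1 for the 40 h libraries and 0.48 to 0.709 for the 96 h libraries. Correlations of log2(RPKM + 1) across all 13602 models were at least 0.9976 between 40 h libraries. At 96 h library 2 stood apart (0.989 and 0.9946 to the others, against 0.9966 between those). In bulk RNA, fewer cells and less RNA per cell cannot be told apart, and RPKM gives only a transcript's part of the whole.

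The comparison of 96 h with 40 h covers the start of lignin oxidation on wood, the subject of the series. Transcripts of all 14 subunits of the 20S core fell, by 1.14-fold to 1.54-fold, while in no other class of more than 1 model did every model pass. Conjugating enzymes and ubiquitin models went in both directions, and most hydrolases and cullins did not pass the test. Of the 107 members, 106 passed the filter on low values, and 60 of them (56.6%) passed limma's test with a Benjamini-Hochberg adjusted p below 0.05, against 62.0% of all 11725 models tested. Of the members 19 rose (17.9%, against 26.3% of all models) and 41 fell (38.7%, against 35.6%). The share of members that changed was thus near that of all models. Changes were small. Only 2 members (1.89%) were changed at least 2-fold, against 15.8% of all models, and the median absolute log2 fold change was 0.24 in members and 0.34 over all models. The libraries of the times did not overlap for 70 members (66.0%), against 69.3% of all models. Every fold change was taken from log2(RPKM + 1), which understates changes of low models. The members were also abundant, with a median of 73.5 RPKM at 40 h against 17.8 over all tested models. The summed RPKM of the libraries was lower at 96 h, and the median log2 fold change of all tested models was -0.08. With the libraries scaled to the same summed RPKM, 25 members rose and 27 fell, and with median-ratio scaling 28 rose and 35 fell, so the balance of rises and falls over the whole set depends on the scaling. Over all tested models the counts moved in the same direction, from 3088 higher and 4179 lower to 3606 and 3474 with the same summed RPKM and to 3758 and 3716 with median-ratio scaling.

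**Figure D1:**
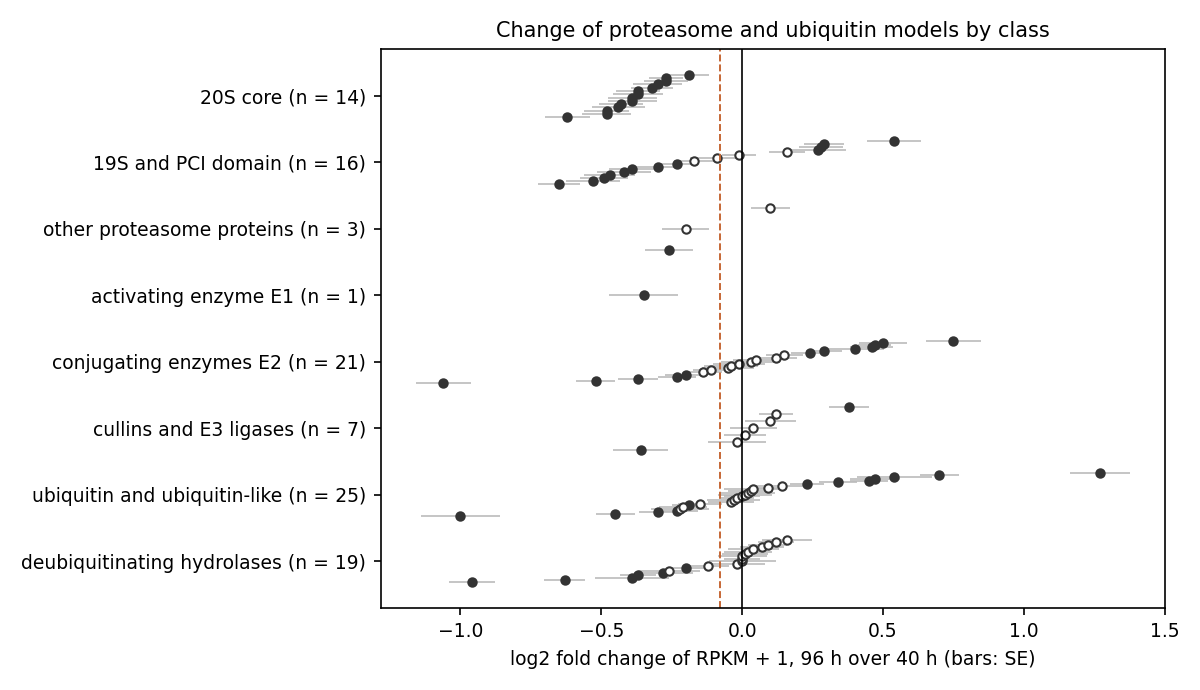
Log2 fold change of RPKM + 1 from 40 h to 96 h (horizontal axis) for the 106 tested members by class, with bars for the SE. Filled points passed limma's test (adjusted p below 0.05), and the dashed line marks the median of all tested models at -0.08. The 14 core models all lie between -0.62 and -0.19, while the E2 and ubiquitin classes spread to both sides of 0.

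Among classes of 7 or more models, log2 fold changes were most alike in the 20S core. Its 14 models all fell, with a median log2 fold change of -0.38 and an SD among models of 0.11, against an SD of 0.96 over all tested models. The 96 h libraries lay below all 40 h libraries for each of the 14, as they did for 4664 of all 11725 tested models. The core models also varied together among the libraries of a time. The median correlation between models of their deviations from the time means was 0.92, also the value for cullin and E3 ligase models. The 14 falls are thus not 14 separate observations. The median RPKM of the class was 173 in library 1, 192 in library 2 and 180 in library 3 at 40 h, and 140, 151.5 and 137 in libraries 1, 2 and 3 at 96 h. Its share of summed RPKM went from 0.378% ± 0.0223 to 0.307% ± 0.0197 (SD, n = 3), a ratio of 0.812. All 14 passed with the main settings, 13 with median-ratio scaling and 11 with the libraries scaled to the same summed RPKM, and none rose in either.

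The largest fall of the core was that of 2946153, with 147, 163 and 151 RPKM at 40 h and 98.8, 107 and 92.5 RPKM at 96 h. Its log2 fold change was -0.62 (SE 0.08, adjusted p = 0.000268). The table's curation puts 3 core models in peptidase family T1A. One of them, 2895704, is annotated as PRE2, in yeast the beta subunit with the chymotrypsin-like site. It had 175.5, 196 and 184 RPKM at 40 h and 136, 146.5 and 130.0 RPKM at 96 h (log2 fold change -0.43, adjusted p = 0.00183). The libraries of the times lay well apart. The second, 2989178, is the most abundant core model by far, at 852.5, 932 and 921 RPKM at 40 h and 651, 726 and 626 RPKM at 96 h, a level 4.56 to 5.11 times the median of the core in the same library. It fell with the rest (log2 fold change -0.44, adjusted p = 0.0044). The last of them, 2986609, was the least abundant core model, going from 77.5 ± 4.89 to 55.1 ± 3.87 RPKM (SD, n = 3; log2 fold change -0.48).

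Among the other core models, 2413718 went from 174.9 ± 10.1 to 125.6 ± 11.4 RPKM (log2 fold change -0.48). Models 140413 and 2899715 both had a log2 fold change of -0.39, and 2947359 and 3033967 one of -0.37. These 5 models had similar levels, from 167 to 225.5 RPKM at 40 h. Smaller falls were those of 3025827, 139792, 2899323 and 2984784, at -0.32, -0.30, -0.27 and -0.27 on the log2 scale. The calls of 139792 and 2899323 were lost with the same summed RPKM (adjusted p = 0.0643 and 0.0881), without 40 h library 2 (0.065 and 0.0738) and without 96 h library 3 (0.0689 and 0.0782), and that of 2899323 also without 40 h library 3 (0.0556). The smallest fall was that of 2990957, with 171, 187 and 177 RPKM at 40 h and 159.5, 161 and 147 RPKM at 96 h (log2 fold change -0.19, adjusted p = 0.0462). Its groups were separate but close. This call was lost with median-ratio scaling (adjusted p = 0.14), with the same summed RPKM (0.243), and without any 1 library other than 96 h library 2 (0.0545 to 0.175).

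Without 2989178 the other 13 core models spanned a 2.87-fold to 3.61-fold range of RPKM within a library, with a coefficient of variation of 23.9% to 28.3%. Their order was largely kept: the Spearman correlation of mean levels at 40 h and 96 h was 0.969 over the 14 models, against 0.896 over all tested models (a description across genes, which share the libraries). That was not particular to the core. The value was 1.0 in cullins and E3 ligases, 0.975 in hydrolases and 0.947 in E2 models. It was 0.894 in ubiquitin and ubiquitin-like models and 0.874 in the 19S class. Library 2 was the highest 40 h library for 14 of 14 core models, against 46.1% of all tested models, and the highest 96 h library for 12 of 14, against 55.8%. At 40 h library 2 was also the highest for all 16 models of the 19S class.

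**Figure D2:**
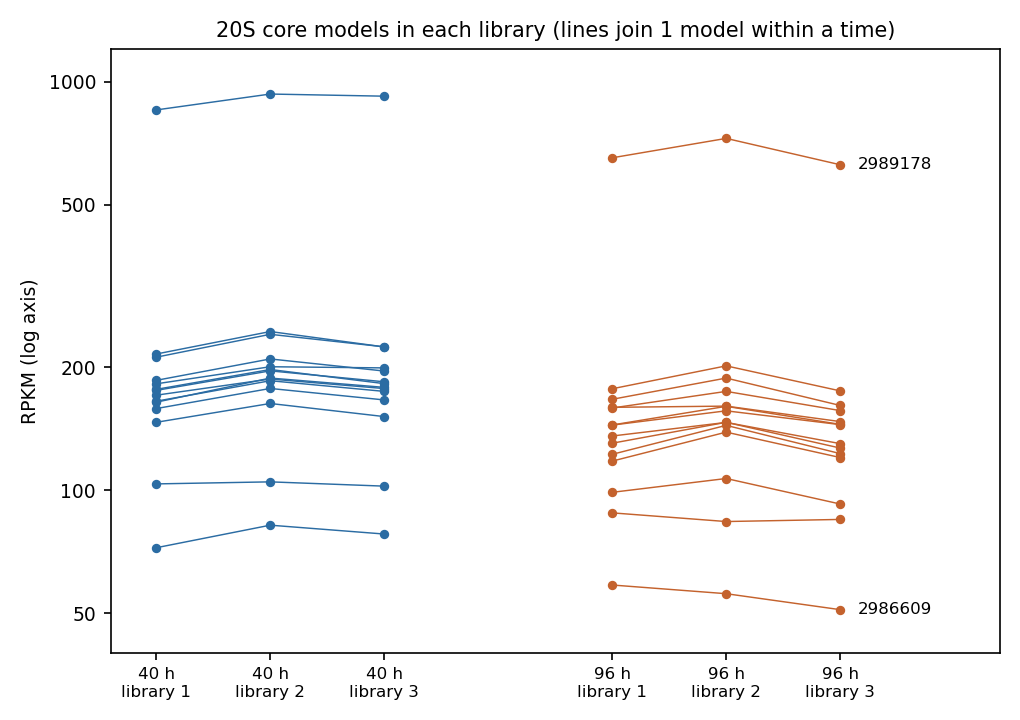
RPKM (log axis) of the 14 core models in the 3 libraries of 40 h (blue) and of 96 h (orange), with lines joining the values of 1 model within a time. Model 2989178 lies at 626 to 932 RPKM, 2986609 at 51.0 to 82.1 RPKM, and every model is lower in each 96 h library than in each 40 h library.

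Proteins that act on the core were annotated by 3 models. UMP1 (3064145), the chaperone of core assembly in yeast, had 179, 202 and 183 RPKM at 40 h and 145, 168.5 and 155 RPKM at 96 h. It fell (log2 fold change -0.26, SE 0.08, adjusted p = 0.0267), and its level stayed at 1.01 to 1.13 times the median of the core in every library. That call was lost with the same summed RPKM (adjusted p = 0.116), without 40 h library 2 (0.0995) or 3 (0.058), and without 96 h library 1 (0.0689) or 3 (0.0803). The PA28 activator (1503523), a ring that opens the core independently of the 19S particle in animals, did not pass, at 60.0 ± 2.70 and 52.2 ± 4.93 RPKM (SD, n = 3; adjusted p = 0.0684). PI31 (2923664), a regulator that binds the core, did not pass either, at 39.5 ± 0.821 and 42.5 ± 2.83 RPKM (adjusted p = 0.23).

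The models matched to the 19S particle were of a pair of domain types, each shared with other complexes. The PCI domain (13 models) occurs in subunits of the 19S lid, the COP9 signalosome and the translation factor eIF3. The proteasome/cyclosome repeat (3 models) occurs in Rpn1 and Rpn2, the scaffold subunits of the 19S base, and in a subunit of the anaphase-promoting complex. The table does not say which complex a model belongs to, so the class is described by domain. Of the 16, 8 fell, 4 rose and 4 did not pass, with a median log2 fold change of -0.20. With the libraries scaled to the same summed RPKM 6 fell and 5 rose.

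Of the models with the proteasome/cyclosome repeat, 2905093 carries 7 repeats and 2985834 carries 9. The first had 102, 110.5 and 103 RPKM at 40 h and 65.9, 83.2 and 69.6 RPKM at 96 h (log2 fold change -0.53, SE 0.10, adjusted p = 0.00193). The other had 97.9, 103 and 94.3 RPKM at 40 h and 65.1, 80.2 and 68.4 RPKM at 96 h (log2 fold change -0.47, adjusted p = 0.00263). Both were close in level and in change, with library 2 the highest of 96 h. Model 2934697, with 4 repeats between residues 1188 and 1416, was far less abundant and rose, from 7.59, 8.02 and 7.47 to 10.1, 12.5 and 12.6 RPKM (log2 fold change 0.54, adjusted p = 0.00162).

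Among PCI models, 6 fell, 3 rose and 4 did not pass (69.2% passed, against 62.0% of all tested models). The largest fall, that of 2909966, was from 123, 138 and 126 RPKM at 40 h to 78.6, 86.8 and 80.3 RPKM at 96 h (log2 fold change -0.65, SE 0.07, adjusted p = 0.000161). Models 3038792, 3017177, 2980357, 2912477 and 2898820 fell too, with log2 fold changes of -0.49, -0.42, -0.39, -0.30 and -0.23. The calls of 2912477 and 2898820 were lost with the same summed RPKM (adjusted p = 0.0552 and 0.134), without 40 h library 2 (0.0533 and 0.104) and without 96 h library 3 (0.0552 and 0.0903), and that of 2898820 also without 40 h library 3 (0.0681) or 96 h library 1 (0.0593). All of the fallen PCI models but 2898820 had mean levels of 94.9 to 135 RPKM at 40 h. Model 2961108 went from 51.6 ± 2.56 to 63.3 ± 3.26 RPKM (SD, n = 3; log2 fold change 0.29), 2979798 from 88.3 ± 5.19 to 107 ± 6.76 RPKM (0.28) and 2987327 from 142 ± 15.0 to 171 ± 12.8 RPKM (0.27). The libraries of the times overlapped for 2987327, and its call was lost with no filter on low values (adjusted p = 0.0628), and without 40 h library 1 (0.133) or 3 (0.129) or 96 h library 2 (0.0774) or 3 (0.0953). That of 2979798 was lost without 40 h library 1 (adjusted p = 0.0547) or 3 (0.0545). Models 3008876, 2979458, 3102996 and 2897372 did not pass, with log2 fold changes of -0.17, -0.09, -0.01 and 0.16, and 2897372 passed as higher with either scaling (adjusted p = 0.00799 and 0.0143) and with no filter on low values (0.0289).

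**Figure D3:**
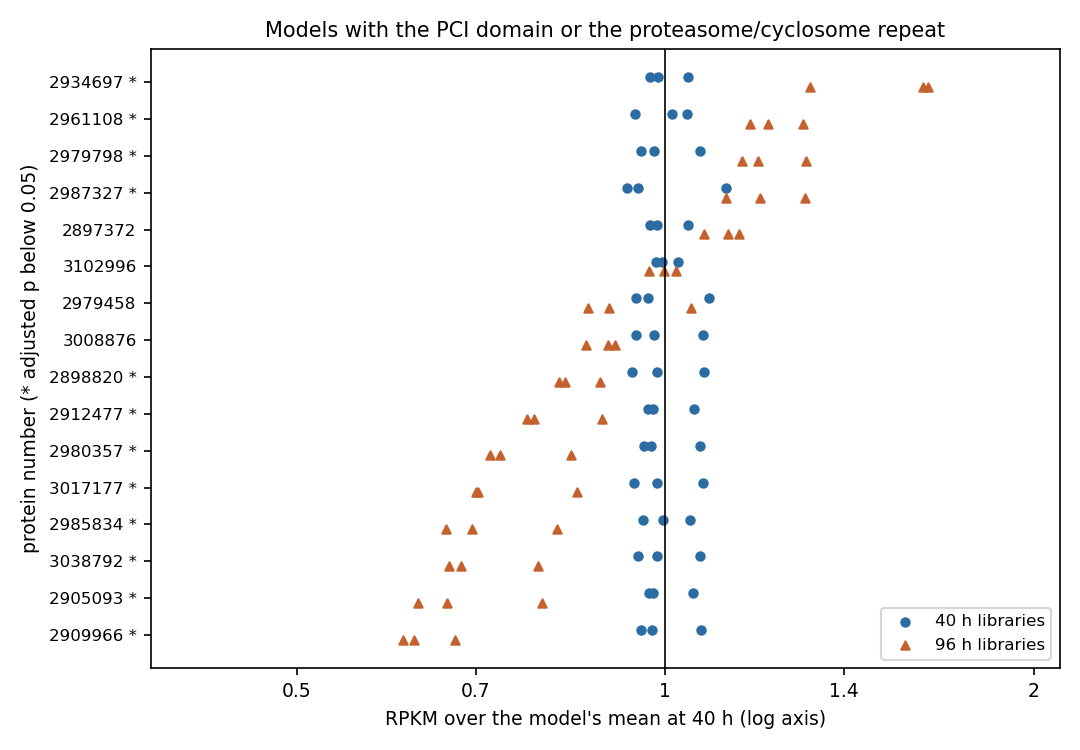
RPKM in each library over the model's own mean at 40 h (log axis) for the 16 models with the PCI domain or the proteasome/cyclosome repeat, with circles for 40 h and triangles for 96 h libraries and an asterisk for an adjusted p below 0.05. The models run from 2934697, whose 96 h libraries lie highest, to 2909966, whose 96 h libraries lie lowest.

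The E1 model 3035539, annotated as ubiquitin-activating enzyme, stands at the head of the cascade. It had 150, 158 and 151 RPKM at 40 h and 103, 145 and 115 RPKM at 96 h. The 96 h libraries were lower but far apart, with library 2 near the 40 h level. The log2 fold change was -0.35 (SE 0.12, adjusted p = 0.037), and the call was lost with either scaling (adjusted p = 0.0572 with median-ratio scaling and 0.0984 with the same summed RPKM), with no filter (0.0759), and without any 1 library other than 96 h library 2 (0.0783 to 0.111).

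Conjugating enzymes carry ubiquitin or a related modifier on a cysteine and take part in choosing the kind of chain that is built. Of the 21 E2 models 7 rose, 5 fell and 9 did not pass, with a median log2 fold change of 0.03, and with the libraries scaled to the same summed RPKM 8 rose and 3 fell. The conjugating domain starts within the first 32 residues in 18 of them and at residue 579 or later in 3. The E2 with the highest level, 2907465, had 1454, 1657 and 1560 RPKM at 40 h and 2115, 2078.5 and 1975.5 RPKM at 96 h. All 96 h libraries were higher (log2 fold change 0.40, SE 0.10, adjusted p = 0.00943). This model held 38.1% to 38.9% of the RPKM of all E2 models at 40 h and 44.8% to 47.4% at 96 h. The class share of summed RPKM went from 0.486% ± 0.0302 to 0.572% ± 0.0158 (SD, n = 3), a ratio of 1.18, which was 1.04 without that model.

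The largest rise among E2 models was that of 2980150, with 93.4, 112 and 99.6 RPKM at 40 h and 167, 190 and 158.5 RPKM at 96 h (log2 fold change 0.75, SE 0.10, adjusted p = 0.000297). The largest fall was that of 2970553, with 443.5, 498 and 513 RPKM at 40 h and 215.5, 255 and 227 RPKM at 96 h (log2 fold change -1.06, SE 0.10, adjusted p = 4.12e-05). In both the times were clearly apart. At 40 h 2970553 was the second most abundant E2, and at 96 h 2974578, which rose from 272 ± 20.5 to 385 ± 20.8 RPKM (SD, n = 3), lay above it. Model 3034421 fell from 85.0, 91.6 and 80.4 RPKM to 59.5, 58.3 and 60.5 RPKM (log2 fold change -0.52, adjusted p = 0.00037). The remaining rises were those of 2985246, 2984130, 3034360 and 2956524, with log2 fold changes of 0.47, 0.46, 0.29 and 0.24. The remaining falls were those of 2947291, 2984329 and 3006411, with log2 fold changes of -0.37, -0.23 and -0.20. Of these, 3006411 was at 1.08 to 1.57 RPKM in all libraries, near the limit of the filter, so its value rests on few reads. The 3 models with a late domain (3006411, 2898348 and 2970659) were all at or below 42.4 RPKM.

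**Figure D4:**
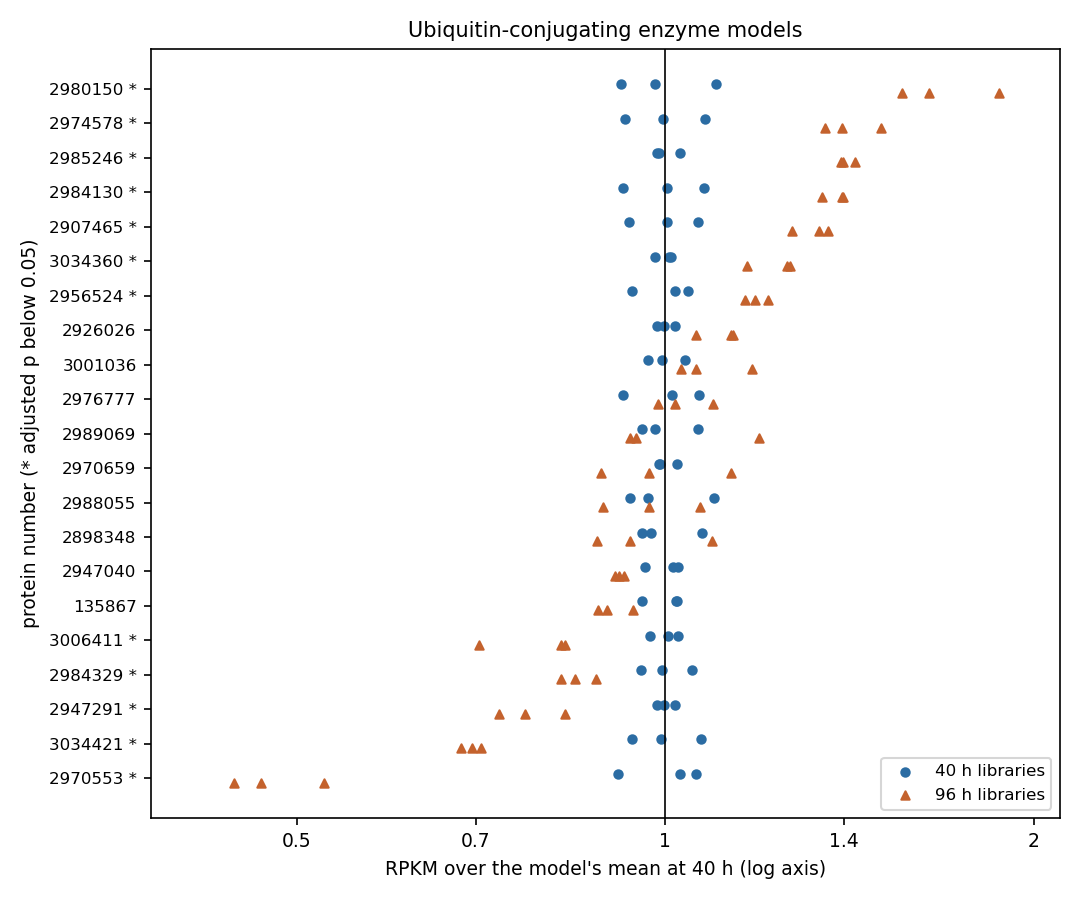
RPKM in each library over the model's own mean at 40 h (log axis) for the 21 E2 models, drawn as circles for 40 h and triangles for 96 h libraries, with an asterisk for an adjusted p below 0.05. The 96 h libraries of 2970553 (log2 fold change -1.06) lie farthest below the 40 h level, and those of 2980150 (0.75) farthest above it.

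Cullins are the scaffolds of the largest group of E3 ligases, and BRE1 is the E3 ligase that modifies histone H2B in yeast. Of the 6 cullin models and the BRE1 model, 1 rose, 1 fell and 5 did not pass. The share that passed was 28.6%, against 62.0% of all tested models. The most abundant, cullin 124505, had 146, 154 and 146 RPKM at 40 h and 128, 168 and 146 RPKM at 96 h, so the 96 h libraries spanned the 40 h values (adjusted p = 0.871). Cullin 2987798 rose from 5.64, 6.21 and 5.61 to 7.64, 7.95 and 7.98 RPKM (log2 fold change 0.38, SE 0.07, adjusted p = 0.00217). Cullin 3032506 fell from 12.2, 13.1 and 12.5 to 8.37, 10.9 and 9.63 RPKM (log2 fold change -0.36, SE 0.10, adjusted p = 0.0121). The changed cullins were thus the least abundant of the class. The BRE1 model 2981061 did not pass, at 39.8 ± 1.86 and 41.1 ± 3.73 RPKM (SD, n = 3; adjusted p = 0.67).

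Ubiquitin itself is made from polyubiquitin genes and from fusions with other proteins. The models 2961926 and 2986197 each carry 5 ubiquitin domains spaced by 76 residues, between residues 6 and 378. Model 2961926, the most abundant of the class, had 1249, 1331 and 1335 RPKM at 40 h and 1262, 1495.5 and 1279 RPKM at 96 h, and did not pass (adjusted p = 0.75). Model 2986197 rose from 688, 755 and 738 RPKM to 984, 1071 and 967 RPKM (log2 fold change 0.47, SE 0.09, adjusted p = 0.00236). Such repeats can be nearly identical between genes, and how the authors assigned shared reads is not stated in the labels or headers, so the division between both models is uncertain. Their sum was 1937, 2086 and 2073 RPKM at 40 h and 2246, 2566.5 and 2246 RPKM at 96 h, a ratio of 1.16. The 2 models with a single ubiquitin domain and the next highest levels were 2977722 and 2872498. Model 2977722 went from 717.5 ± 23.7 to 732 ± 66.2 RPKM (SD, n = 3), and 2872498 from 710 ± 18.0 to 697 ± 64.0 RPKM. Neither passed, and both were lowest in library 2 at 96 h, where 2961926 and 2986197 were highest.

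The ubiquitin and ubiquitin-like class of 25 models had 7 rises (28.0%, against 26.3% of all tested models) and 5 falls (20.0%, against 35.6%). Falls numbered 3 with the same summed RPKM, and 3 without 40 h library 2, 40 h library 3 or 96 h library 3, and 7 without 96 h library 2. The largest rise of all members was that of 2984923, whose ubiquitin domain lies at residues 382 to 450, with 18.3, 20.4 and 20.8 RPKM at 40 h and 43.9, 57.1 and 47.2 RPKM at 96 h. Its log2 fold change was 1.27 (SE 0.11, adjusted p = 2.65e-05). Model 1751348, with a ubiquitin domain at residues 6 to 79, rose from 84.4, 81.7 and 75.4 RPKM to 129, 129.5 and 135 RPKM (log2 fold change 0.70, SE 0.07, adjusted p = 6.66e-05). Each was well above its 40 h level in every 96 h library. All 3 models with a CUE domain, which binds ubiquitin, rose. Model 3017283 went from 33.2, 33.3 and 32.9 to 58.2, 38.9 and 51.1 RPKM, the widest spread among them (log2 fold change 0.54). The log2 fold change was 0.45 for 3005552 and 0.34 for 2984261. Model 3005552 was the only member listed with a signal peptide, at a probability of 0.981. Model 2894593 rose too (log2 fold change 0.23).

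The largest fall of the class was that of 3022384, annotated as DOA1-like. Doa1 is a ubiquitin-binding partner of Cdc48 in yeast, needed to keep up the level of free ubiquitin. The model had 88.1, 91.3 and 97.3 RPKM at 40 h and 39.4, 58.2 and 41.5 RPKM at 96 h (log2 fold change -1.0, SE 0.14, adjusted p = 0.00046). Library 2 was the highest of 96 h by a wide margin and still below every 40 h library. UFD1 (3022106), a Cdc48 cofactor in yeast, fell as well (log2 fold change -0.23, adjusted p = 0.0291). The others that fell were 3047637, 2916641 and the UBA domain model 2919314, with log2 fold changes of -0.45, -0.30 and -0.19. The modifier Urm1 (3025489), which modifies tRNA in yeast, had 15.0, 18.6 and 17.7 RPKM at 40 h and 17.0, 20.3 and 19.6 RPKM at 96 h and did not pass (adjusted p = 0.253). Of the 16 models with the ubiquitin domain, 10 did not pass, and the share that passed was 37.5%, against 62.0% of all tested models.

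**Figure D5:**
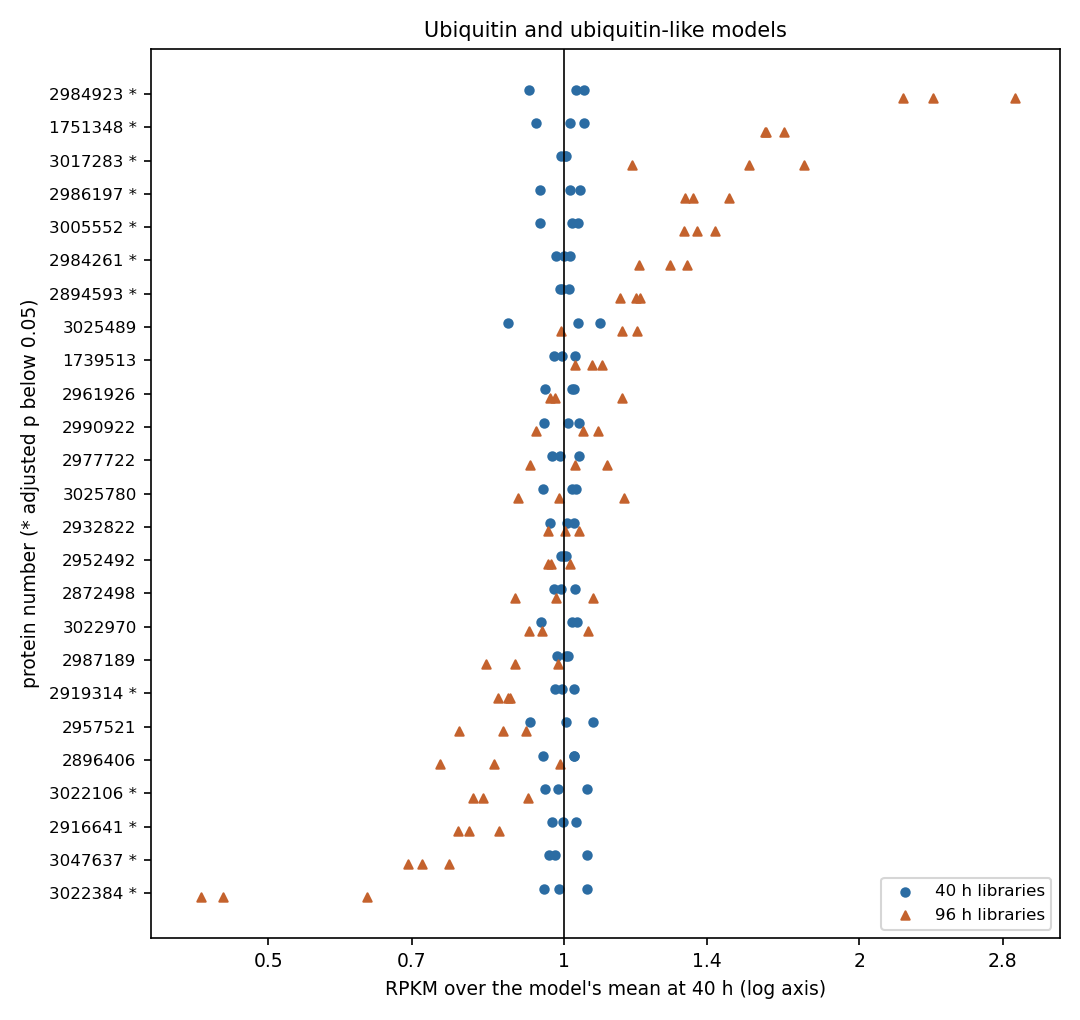
RPKM in each library over the model's own mean at 40 h (log axis) for the 25 ubiquitin and ubiquitin-like models, with blue circles for 40 h, orange triangles for 96 h and an asterisk for an adjusted p below 0.05. Model 2984923 lies highest at 96 h and 3022384 lowest. Of the abundant models, 2961926, 2977722 and 2872498 stay around 1, while 2986197 lies above it at 96 h (log2 fold change 0.47).

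Deubiquitinating hydrolases cut ubiquitin from substrates or process its precursors. Of 20 models 19 were tested, and 6 fell, 0 rose and 13 did not pass. The share that fell, 31.6%, was near the 35.6% of all tested models. Fewer passed in either direction, 31.6% against 62.0%, since none rose, against 26.3% of all models. With median-ratio scaling 4 fell and 3 rose, and with the same summed RPKM 3 fell and 2 rose. The model not tested, 6244, was at 0.514 to 0.807 RPKM. The families differed in their counts. Of the 4 models of peptidase family C12, 3 fell (75.0%), and of the 14 tested models of family C19, 3 fell (21.4%). Over all tested models 35.6% fell, and the difference between the families was not tested. The C12 model 2064613 had 23.1, 24.9 and 24.5 RPKM at 40 h and 13.2, 11.5 and 11.1 RPKM at 96 h (log2 fold change -0.96, SE 0.08, adjusted p = 3e-05). The C12 model 2981451 had 25.2, 26.3 and 24.8 RPKM at 40 h and 17.4, 15.1 and 15.9 RPKM at 96 h (log2 fold change -0.63, adjusted p = 0.000167). At 40 h both lay below the median of the hydrolases (32.2 RPKM) and above that of all tested models (17.8 RPKM). In neither did a library of 96 h come near the 40 h values. The other C12 model that fell, 2975662, had overlapping libraries (51.2, 56.0 and 59.3 against 36.8, 52.1 and 38.9 RPKM, adjusted p = 0.0322).

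In family C19, the ubiquitin-specific proteases, 2988802 fell from 48.4, 51.3 and 50.6 to 37.0, 39.8 and 39.2 RPKM (log2 fold change -0.37, SE 0.06, adjusted p = 0.00146). Models 2977385 and 2934624 fell, with log2 fold changes of -0.28 and -0.20. The most abundant hydrolase, 2973752, had 130, 137 and 132 RPKM at 40 h and 94.7, 129 and 110.5 RPKM at 96 h and did not pass (adjusted p = 0.0703). Library 2 was again the highest of 96 h, and without it this model passed (adjusted p = 0.00403). Over the hydrolases tested, library 2 was the highest at 96 h for 78.9%, against 55.8% of all models. The other 10 C19 models had log2 fold changes of -0.12 to 0.16 and did not pass. A model of family C78 (2896274), which acts on a ubiquitin fold modifier, did not pass, at 9.20 ± 0.508 and 9.07 ± 1.22 RPKM (SD, n = 3).

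Genes of the same pathway that the words of the rule do not reach also changed in both directions. Over all tested models 62.0% passed, 26.3% as higher and 35.6% as lower. Of 43 models with a RING finger, the domain of most E3 ligases, 13 rose and 13 fell (median log2 fold change -0.03). The share of them that passed, 60.5%, was near that of all models. The RING model 2345805, annotated as hypothetical, rose from 3.27, 4.27 and 2.56 to 24.9, 16.7 and 20.9 RPKM (log2 fold change 2.32, SE 0.18, adjusted p = 1.59e-05). Its times were far apart, and 5 RING models (11.6%) changed at least 2-fold, against 15.8% of all tested models. Of 4 models for cofactors of Cdc48, the ATPase that extracts ubiquitin-tagged proteins, 2 rose and 2 fell, among them the UBX model 2911354 (log2 fold change -0.51). The 2 SKP1 models, which link cullins to F-box proteins, did not pass. Of 3 SUMO protease models 1 fell (2726641, log2 fold change -0.24). Of 8 autophagy models 4 fell and 1 rose (62.5% passed, near the share of all models), with a median of -0.23. The largest change among them was the fall of 2981290, annotated as autophagy protein 6 (log2 fold change -0.49). The pattern for the COP9 signalosome matched no model.

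Further lists were made from the annotation after the files were seen. The curated Cdc48 model 2900442 did not pass, going from 418 ± 15.2 to 379 ± 40.1 RPKM (SD, n = 3; adjusted p = 0.213). Of 7 models with the Mov34/MPN domain, found in the 19S lid and the COP9 signalosome among others, 2 fell and 5 did not pass. The share that passed was 28.6%, against 62.0% of all tested models. Among the Mov34/MPN models 2985914 had 85.2, 98.3 and 92.6 RPKM at 40 h and 51.9, 56.9 and 54.0 RPKM at 96 h. Its log2 fold change was -0.75 (adjusted p = 7.89e-05), below that of every 20S core model. Of 6 other models with the ThiF fold of E1-like enzymes 3 fell and 1 rose (66.7% passed, near the share of all models). The largest change was the fall of 2909412, from 38.8, 42.1 and 40.6 to 17.0, 17.7 and 16.2 RPKM (log2 fold change -1.21, adjusted p = 3.16e-06). None of 3 HECT ligase models and none of 3 OTU domain models passed.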

How the data were processed

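RNA of 3 pools of 20 sections per time was sequenced, per the labels' protocols, and CASAVA 1.8.2 is named in the submitters' processing notes. The aligner, read counter, genome build and annotation were not given in the sources used here. Per the file headers, the authors deposited RPKM for 13602 models in 18 lane columns (0.002 is the lowest value, read as no reads), and beside it per model a ratio of the times, a p-value and a t score. The barcode in the titles was taken as the library, because each has its own index sequence, and its 3 lanes were averaged.

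The fit took the 11725 models that reached 1 RPKM in 3 or more libraries, as log2(RPKM + 1), and used limma (version 3.58.1; R 4.3.3) with a variance trend and no block. Benjamini-Hochberg adjustment ran over all of them. On simulated data the fit recovered 39 of 50 models changed 1.5-fold and 50 of 50 changed 2-fold, with 7 false calls. The simulated noise was independent between models, had the same SD at both times, and few models were changed. In the real data models vary together, and the median SD over all tested models was 0.0715 at 40 h and 0.12 at 96 h. The false calls are therefore not an error rate of these data. Changes below 1.5-fold were not simulated, so a model that did not pass may still have changed by a small amount. Low values rest on few reads, and no counting interval can be given without read totals.

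Members and lists were chosen with earlier results of these data known. Classes followed annotation words, and 1 model (2896274) was moved to the hydrolases by its description. The rule named every 20S and 19S class model, in each other class the most abundant and up to 3 with the largest change past the threshold and separate libraries, and from each list outside the rule the largest change past the threshold. Members named beyond this were chosen after their values were seen. Alternatives were the pseudocount, filter, scaling, variance trend, lane average, replicate block, each library left out, the threshold and the authors' P. That P was taken as deposited, without adjustment.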

Additional observations from a re-analysis of the deposited data

How the results depend on the processing

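The 20S core kept 11 to 14 falls and 0 rises under all 17 alternatives. Of the 47 members that the rule named, 40 passed in the main fit, and none of these 40 changed sign. Of these, 31 passed under every alternative other than the stricter threshold, which was applied to counts only. Members named beyond the rule were not followed 1 by 1, so this tally does not cover them. With the libraries scaled to the same summed RPKM, falls numbered 27 of all members, 3 of E2 and 3 of hydrolases, and hydrolase rises 2; with median-ratio scaling hydrolase rises were 3, and with no filter 1. At a threshold of 0.01, falls numbered 26 of all members, 3 of E2, 3 of ubiquitin and ubiquitin-like models and 3 of hydrolases, and rises in the 19S class 2. The P value of the authors' deposited table was used as given, with no Benjamini-Hochberg adjustment. Its counts are thus not directly comparable with those of the adjusted tests. By that P, members that rose numbered 32 and those that fell 51, and hydrolases that rose 4. Over all models 4247 rose and 5728 fell by it, and 2897372 passed there too. Leaving out 1 library, members that fell numbered 27 (without 40 h library 2 or 96 h library 3) to 44, hydrolases that fell 3 (without 40 h library 2 or 3, or 96 h library 3) to 7, hydrolases that rose 0 to 1 (1 without 96 h library 1), E2 that fell 3 (without 40 h library 2 or 3, or 96 h library 3) to 4, and rises in the 19S class 2 (without 40 h library 1 or 3) to 4. The causes were not tested. Whether libraries of the times are paired cannot be told from correlations of deviations within 3 libraries per time. These were 0.136, 0.133 and -0.102 for libraries of the same barcode number. Matched instead by the number before the time in the column headers, they were 0.218, -0.097 and 0.076. That match sets 40 h libraries 1, 2 and 3 beside 96 h libraries 3, 1 and 2, and no block was fitted for it. With the barcode number as replicate block, 19 members rose and 40 fell. Of these falls 13 were of the 20S core, where 2990957 did not pass (adjusted p = 0.0653). Read totals are not given, so what depth limits cannot be stated as an interval; members near 1 RPKM are the least certain.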
